A study of Homo sapiens with 16 samples.

Results

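Control-only sites are stretches of the genome where RNA polymerase II (Pol II) was called as bound in cells without merbarone and was not called after either 30 min or 1 h of the drug. All peaks of the control, 30 min and 1 h Pol II lists that overlapped by at least 1 bp were merged into 104562 regions. Of these, 56863 held a control peak and 50390 of those were at least 159 bp wide, the width of the narrowest peak in the 1 h list. Control-only sites were selected on the measured peak calls and on width: a region needed a control peak, no peak of either merbarone list, and at least 159 bp, and 6424 regions met this rule. They were 12.7% of the 50390 control regions of that width, and this share is fixed by the rule. The same share was 23% for regions with no peak at 30 min and 22.2% for those with no peak at 1 h. Every control-only site held exactly 1 control peak, so its width is the width of that peak.

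The cells were hTERT RPE-1, 1 wild-type human retinal pigment epithelial line that is kept dividing by telomerase. All cultures were first held for 48 h in medium with 0.1% serum, so every group was serum starved. Pol II was mapped by chromatin immunoprecipitation and sequencing with an antibody to the N-terminal part of its RPB1 subunit, in 3 libraries of DMSO vehicle for 30 min, 3 untreated libraries, 3 libraries of 200 uM merbarone for 30 min and 2 libraries of 200 uM merbarone for 60 min. Topoisomerase II alpha (TOP2A) was mapped in 2 untreated libraries. The vehicle and untreated libraries share 1 peak list, called control here, and no vehicle library matches the 60 min time. Each condition has 1 list that holds positions only, so the spread between libraries is unknown, and no test between conditions could be made. Read depth is unknown, and a site that is missing from a list may hold Pol II below the threshold of peak calling. Intervals after a share are 95% Wilson intervals for the counting of regions, which are not replicates and lie in groups along the genome. Positions are of hg19, counted from 1. Genes and sequence at these positions were not analysed here, since the gene and promoter tables at hand are of another build.

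Pol II transcribes protein-coding genes and many non-coding RNAs. It gathers just after the start of a gene, where it pauses, and is spread more thinly along the gene body and past its end. Enhancers also hold focal Pol II. Moving Pol II overwinds the DNA ahead of it and underwinds the DNA behind it. TOP2A relieves this strain by passing one DNA duplex through another, and merbarone blocks that cycle before the DNA is cut.

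Control-only sites were narrow. Their median width was 196 bp, the middle 50% lay between 173 and 238 bp, and the widest spanned 917 bp. Only 627 of the 6424 (9.76%) were at least 300 bp wide, and 13 were at least 600 bp wide. Regions with a peak in all 3 lists, called kept regions here, numbered 34044 and had a median merged width of 1007 bp, of which a median of 679 bp was under control peaks. The 5182 control regions of at least 159 bp with no peak at 30 min alone held a median of 184 bp of control peak, and the 4740 with no peak at 1 h alone held 192 bp. These last groups were held to 159 bp over the whole merged region, so their control peaks could be narrower than that limit. Regions that were missing from 1 list thus had narrow control peaks too.

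The share of control regions without a merbarone peak fell steadily with the width of the control peak. Among regions with 159 to under 180 bp of control peak, 2159 of 4770 (45.3%, 43.9 to 46.7) were control only. The share was 34.2% (32.9 to 35.5) from 200 to under 250 bp and 10% (9.20 to 10.9) from 300 to under 400 bp. It was 2.72% (2.31 to 3.19) from 400 to under 600 bp and 0.196% (0.115 to 0.335) from 600 to under 1000 bp. None of the 12047 regions with 1000 bp or more of control peak was control only, which allows a share of up to 0.0249% if the limit is set at 3 counts. Width and presence in the lists were both used to choose the sites, so this gradient is a description.

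**Figure D1:**
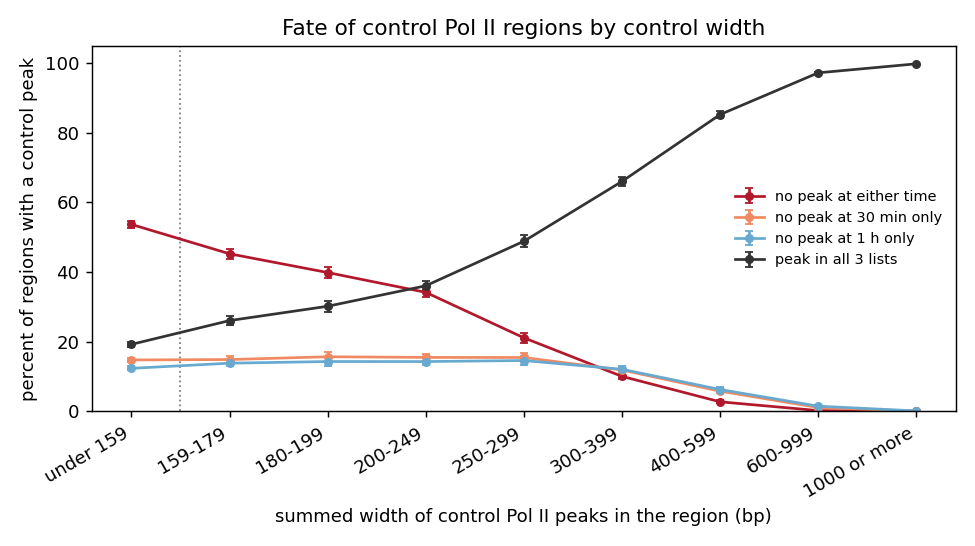
The x axis gives the summed width in bp of control Pol II peaks in a region and the y axis the percent of regions of that width with each outcome; bars are 95% Wilson intervals and the dotted line marks 159 bp. The control-only share falls from 45.3% at 159 to under 180 bp to 0.196% at 600 to under 1000 bp, while the share with a peak in all 3 lists rises to 97.3%.

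The lower limit of 159 bp fell inside a dense part of the width range. Another 6432 control-only regions were narrower than it, so it divided the 12856 control-only regions almost equally. At 158 bp, just outside, there were 125 regions with a median distance of 664 bp to the nearest 30 min peak and 695 bp to the nearest 1 h peak. At 159 bp, just inside, there were 133, with medians of 749 and 654 bp. Regions on either side of the limit thus lay at like distances from Pol II after merbarone.

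The widest control-only site and the next widest each lay within 128 bp of a 30 min peak. The widest, chr20:39810891-39811807, spanned 917 bp and stood 128 bp from a 30 min peak and 1112 bp from a 1 h peak. The site chr11:64971588-64972341 spanned 754 bp, with a 30 min peak 97 bp away and a 1 h peak 1577 bp away. The region nearest to it was found at 30 min alone, and its nearest other control peak was 1196 bp away. Both sites had Pol II closer at 30 min than at 1 h.

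At other wide sites the gap to the next peak was very small. The site chr10:103863070-103863817 (748 bp) was separated by 2 bp from another control peak and by 34 bp from a 1 h peak. With peaks up to 37 bp apart joined within each list it was no longer control only. The site chr12:6427151-6427892 (742 bp) touched a 30 min peak with 0 bp between them, so it left the group when touching peaks were merged. With peaks up to 100 bp apart merged, both of these and the 754 bp site on chromosome 11 left it. The gaps to the nearest merbarone peak at these 3 places were 34, 0 and 97 bp.

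Other wide sites stood in stretches that held less Pol II cover after the drug. Around chr3:99378696-99379432 (737 bp), peaks covered 33.6% of the 5 kb on either side in control, 14.6% at 30 min and 18.9% at 1 h. Around chr1:203716029-203716776 (748 bp) the cover was 12.2% in control, 21.7% at 30 min and 2.18% at 1 h. Flanks of chr19:39232686-39233363 (678 bp) had a control cover of 45.8%, then 5.19% at 30 min and 0 at 1 h. The flanks on chromosomes 3 and 19 had less cover at both times, and those on chromosome 1 had less only at 1 h.

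The site chr19:44242954-44243637 (684 bp) had flanks with less cover at 30 min and more at 1 h, at 7.01% and 27.3% against 11.4% in control. Around chr1:25179712-25180371 (660 bp) the cover hardly differed, at 37.5%, 33.4% and 31.5%. The last of the 10, chr3:112022425-112023061 (637 bp), was alone: its nearest merbarone peak was 86.8 kb away and no list had a peak within 5 kb.

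Most control-only sites lay close to Pol II called after merbarone. A 30 min peak stood within 1 kb of 3872 sites (60.3%, 59.1 to 61.5) and a 1 h peak within 1 kb of 3805 (59.2%, 58.0 to 60.4). At least one of the drug lists had a peak within 1 kb of 4603 sites (71.7%, 70.5 to 72.7), within 5 kb of 5699 (88.7%, 87.9 to 89.5) and within 100 bp of 1504 (23.4%, 22.4 to 24.5). The median distance was 646 bp to a 30 min peak and 642.5 bp to a 1 h peak, and these medians were close. The 1 h peak was the closer of the pair at 3292 sites (51.2%) and the 30 min peak at 3105 (48.3%). Counting only merbarone peaks of at least 300 bp, the shares within 1 kb dropped to 33.1% at 30 min and 40.2% at 1 h, so many of the nearby peaks were short as well, and the 1 h share was then the higher.

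Kept regions had another merbarone peak near them more often. A kept region has a merbarone peak on it by definition, so only peaks outside the region were counted. These peaks come from the same lists that the rule used to divide kept regions from control-only sites, so the comparison is a description. Few kept regions had a merged width like that of control-only sites: 8 lay from 159 to under 180 bp and 35 from 180 to under 200 bp, where 33.6% and 19.5% of the control-only sites lay. Kept regions were therefore weighted by the summed width of their control peaks to the same width classes, each of which then held at least 946 kept regions up to 600 bp. In them, 77.4% had another 30 min peak within 1 kb and 80.5% another 1 h peak, against 60.3% and 59.2% of control-only sites. Such kept regions also span merbarone peaks, so as merged regions they can be wider than the sites. Weighted by merged width instead, the values for kept regions were 78.9% and 70.6%.

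With like limits in every list, the order depended on the width used for weighting. When every list was given the same limits, by joining neighbours no more than 37 bp apart and dropping what stayed narrower than 159 bp, 55.4% of control-only sites had a 30 min peak within 1 kb and 58.3% a 1 h peak. The kept regions then stood at 44.9% and 46.2% by merged width, which put them below the control-only sites. By control width they stood at 74.5% and 80.4%, which put them above, as with the lists as deposited. Kept regions in each merged-width class were not counted under these limits.

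Distance to other control peaks differed less. Another control peak lay within 1 kb of 66.1% (64.9 to 67.2) of control-only sites and of 73.5% of kept regions of like control width. The median distances were 468 and 358 bp. No Pol II region of any list lay within 10 kb of 390 control-only sites (6.07%, 5.51 to 6.68), and the share of kept regions was 6.05% by control width and 11% by merged width. The share of solitary sites was thus close to that of kept regions by the first weighting and below it by the second.

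**Figure D2:**
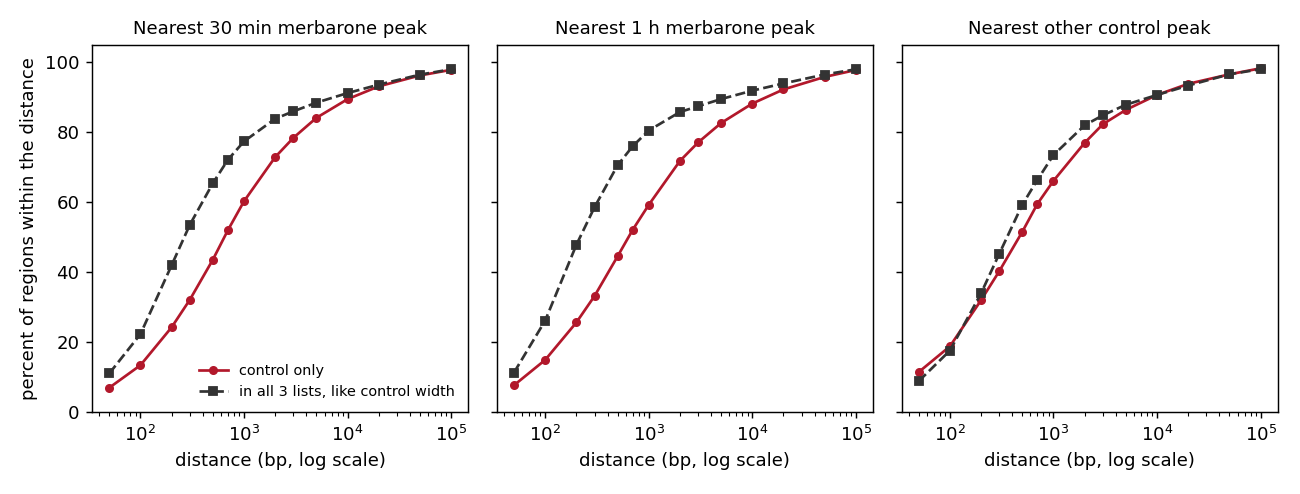
Each panel plots, on a log axis in bp, the distance to the nearest 30 min peak, 1 h peak or other control peak against the cumulative percent of regions; red circles are the 6424 control-only sites and black squares are kept regions weighted to the same control widths, counting only peaks outside the region. At 1 kb the red curve stands at 60.3% and 59.2% for the merbarone lists, against 77.4% and 80.5%, and the curves lie closer for other control peaks (66.1% and 73.5%).

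The regions next to control-only sites were often control only themselves. The nearest Pol II region was another control-only region of any width for 1541 sites (24.0%), while control-only regions made up 12.3% of all 104562 regions. The nearest region was control only for 9.91% of kept regions of like control width. Regions missing at 1 time alone also had neighbours of their own class often. For those missing at 30 min alone the share was 10.2%, against 4.96% of all regions. For those missing at 1 h alone it was 11.8%, against 4.57%. The trait was thus not particular to control-only sites. The nearest region was a kept region for 29.2% of control-only sites and for 43.2% of kept regions. Regions found only after merbarone were the nearest neighbours of the remaining sites in many cases: those of 30 min alone for 13.8%, those of 1 h alone for 14.7% and those of both times for 5.15%. The median width of the nearest region was 271 bp over all sites and 903.5 bp where it was a kept region.

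Control-only sites also lay near each other. Another of the 6424 lay within 5 kb of 2621 (40.8%, 39.6 to 42.0). At like control width, the share was 27.7% for kept regions, 31% for regions missing at 30 min alone and 41.4% for regions missing at 1 h alone. The share went up with width, from 37.5% of sites of 159 to under 180 bp to 58.9% (50.8 to 66.6) of the 146 sites of 400 to under 600 bp. For kept regions with those control widths it was 27.7% and 22.9%.

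Clusters were counted strictly, as runs of sites at most 5 kb apart with no other Pol II region between them. By this count 1251 sites (19.5%, 18.5 to 20.5) formed 568 clusters and 5173 stood singly. Pairs made up 482 of the clusters, 69 held 3 sites, and 17 held 4 or more. The median cluster spanned 843.5 bp and the longest 10795 bp. Between the merbarone peaks on either side, the stretch around a control-only site had a median length of 3657.5 bp. It was at least 10 kb for 2202 sites (34.3%) and under 1 kb for 1331 (20.7%).

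The largest clusters differed in what lay around them. The first, chr7:20377558-20388011, held 9 sites of 172 to 313 bp over 10.5 kb, and control peaks covered 19.3% of it. It ended 22 bp from a 1 h peak and 3.66 kb from a 30 min peak, and the stretch without merbarone peaks was 14.1 kb long. The second, chr19:39231567-39234937, was dense: 7 sites of 168 to 678 bp covered 61.6% of 3.37 kb. A 30 min peak stood 543 bp away and a 1 h peak 4.59 kb away, at one end of 90.9 kb without merbarone peaks.

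The next cluster was far from Pol II after the drug. It lay at chr7:128331482-128337405, held 6 sites of 161 to 500 bp, and stood 15.5 kb from the nearest peak at either time. The others held 5 sites each. In chr1:158074505-158076260, control peaks covered 65.2% of 1.76 kb, with a 30 min peak at 145 bp and a 1 h peak at 175 bp. This cluster held 2 sites, not 5, with like limits in every list or with peaks up to 100 bp apart merged. In chr1:155938770-155943046 they covered 27.2% of 4.28 kb, and a TOP2A peak lay 5.02 kb away.

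Control-only sites were also spread over long tracts of broken Pol II signal. Joining regions of the 3 lists across gaps of up to 5 kb gave 22314 domains, of which 3824 held a control-only site. Most of these held 1 (2708 domains), 1116 held more, and 153 held at least 5. These 153 domains contained 1375 of the sites (21.4%). At the other extreme, 621 domains with 678 of the sites (10.6%) held nothing but control-only regions, so these stretches had no called Pol II at either time after merbarone.

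The share of control regions that were control only was lowest in the shortest domains. It was 11% (10.4 to 11.7) in domains under 2 kb, 12.9% (12.3 to 13.5) from 2 to 10 kb, 13.1% (12.7 to 13.6) from 10 to 50 kb, and in longer domains it was 13.4% (12.7 to 14.1). Control peaks were wider in short domains, with a median of 552 bp per region against 303 bp. Among regions with 200 to under 250 bp of control peak the order was not the same: 39.2% (35.8 to 42.7) were control only in domains under 2 kb, while domains of at least 50 kb had 34.2% (31.5 to 37.1).

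Among the 10 domains with the most control-only sites, cover went down in some and up in others. Together they were 2.39 Mb long and held 315 of the sites (4.90%). The domain chr17:37025110-37086113 had the highest share, with 25 of its 47 control regions control only. Pol II peaks covered 34.0% of its 61.0 kb in control, 17.1% at 30 min and 17.2% at 1 h. Its control-only sites made up 26.2% of the control-covered length, and 18 of the 25 were in clusters. Between 10 and 50 kb from its start, a stretch chosen after its values were seen, cover was 26.5% in control, 4.74% at 30 min and 6.84% at 1 h, against 51.5%, 24.4% and 41.5% in its first 10 kb.

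A like pattern was seen in chr3:99355694-99444136, which holds the 737 bp site. There 25 of 72 control regions were control only, and the cover of 37.2% in control gave way to 26.4% at 30 min and 16.4% at 1 h. Between 10 and 60 kb from its start, again chosen after the values were seen, it was 25.5%, 9.27% and 7.23%.

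A pair of long domains kept their cover at 30 min and had less at 1 h. In chr7:5341852-5499694, with 33 of 70 control regions control only, cover was 24.1% in control, 23.9% at 30 min and 14.6% at 1 h. Control-only sites stood there beside 41 regions found at 30 min alone, and 5 TOP2A peaks lay in the domain. These peaks stood 116.772 to 125.382 kb from the start of the domain. Between 114.737 and 128.495 kb the domain held no control-only site. These limits are the edges of the control-only sites on either side, chosen after the values were seen. A control peak from 118.985 to 127.864 kb lay between them with merbarone peaks of both times on it. No control-only site could lie on that peak, so the stretch says nothing about TOP2A. Between 10 and 110 kb from the start of the domain, also chosen after the values were seen, cover was 9.99%, 11.4% and 1.35%. In chr10:33461827-33626753, with 29 of 119, cover was 37.3%, 37.7% and 21.3%, and 46 regions were missing at 1 h alone.

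In other domains control-only sites lay where cover was higher after the drug. Cover was higher in the lists as a whole too: control peaks covered 42.8 Mb of the genome, those of 30 min 47.7 Mb and those of 1 h 58.3 Mb. The domain with the most of them, chr10:13673761-14216720, held 54 among 361 control regions (15.0%, against 12.7% of all control regions), and its cover was higher after the drug, at 40.7% (30 min) and 45.4% (1 h) against 32.2% before. It also held 162 regions found only after merbarone. In chr1:39568892-39957495, 19 of 175 control regions (10.9%) were control only, which is below that overall share. In the same domain 220 regions were found only after merbarone, and cover went from 19.9% to 27.9% and 41.8%. The domain chr10:49638802-49821266 (19 of 102) went from 23.3% to 30.6% and 37.4%, and chr15:48691603-48939920 (24 of 130) from 19.3% to 23.4% and 26.7%. In these 4 domains control-only sites were present while cover was higher at both times, as it was in the lists as a whole.

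The remaining 2 followed neither course. The domain chr11:19732893-20092355 held 53 control-only sites among 162 control regions, and its cover was 17.9% in control, 14.0% at 30 min and 29.1% at 1 h. By contrast, the domain chr7:55085853-55284219 held 34 among 133 and was covered over 32.0%, 29.8% and 30.8%. Its cover thus hardly moved although 25.6% of its control regions were control only.

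**Figure D3:**
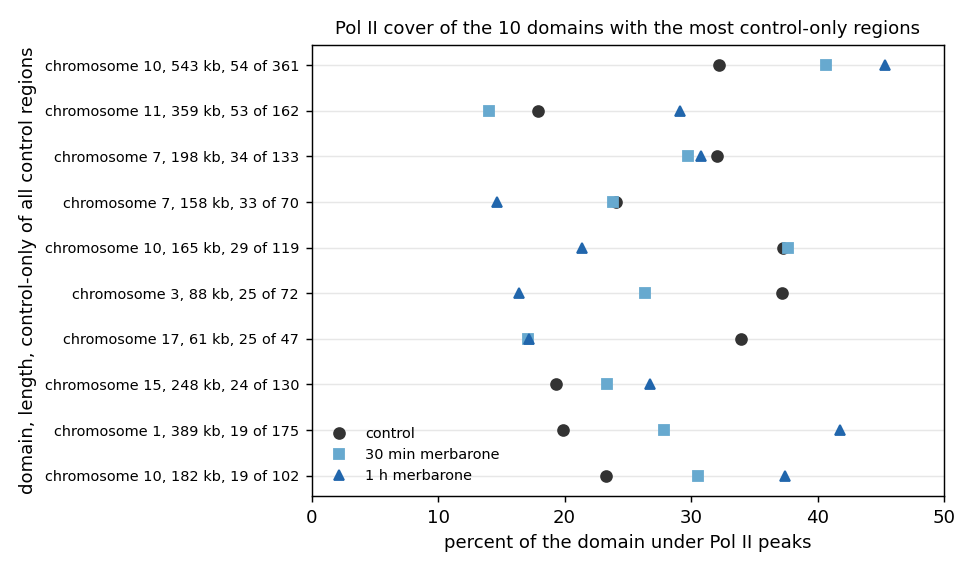
Points give the percent of each domain under Pol II peaks in control (circles), at 30 min (squares) and at 1 h (triangles) for the 10 domains with the most control-only sites; row labels give the length and the number of control-only sites of all control regions. Cover at 1 h is below control in 5 domains, with the chromosome 17 domain at 34.0% and 17.2%, and above it in the other 5.

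Around control-only sites as a whole, Pol II cover was nearly level. In the 5 kb on either side, control peaks covered a mean of 17.1%, 30 min peaks 17.6% and 1 h peaks 19.4%. Around kept regions of like control width the means were 20.5%, 24.9% and 30.3%. Cover at 1 h was below control around 2445 control-only sites (38.1%, 36.9 to 39.3), against 16.9% of kept regions of like control width, and above it around 3350 (52.1%, 50.9 to 53.4), against 74.6%. Windows with less Pol II cover were therefore more frequent beside control-only sites, and windows with more were still the larger group. Regions missing at 30 min alone had windows that followed their own list, at 19.2% in control, 19.4% at 30 min and 30.8% at 1 h. Those missing at 1 h alone had 20.1%, 24.4% and 20.8%. These windows come from the same lists as the rule, so they are a description.

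A group of 513 control-only sites (7.99%, 7.35 to 8.67) had no merbarone peak within 10 kb. Kept regions of like control width had no other merbarone peak within 10 kb in 6.73% of cases, and those of like merged width in 11.5%, so the order turned with the weighting. The 513 sites were spread over 23 chromosomes, and 80 of them (15.6%) were at least 300 bp wide, against 9.25% of the other control-only sites. Only 109 had another control peak within 5 kb, and 77 were in clusters.

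The most distant was chr10:108342261-108342419, a 159 bp site 1.97 Mb from the nearest merbarone peak and 2.24 Mb from any other control peak. On chromosome X, 2 sites 6 bp apart, chrX:86772535-86772751 and chrX:86772758-86772962, formed a pair 1.47 Mb from the nearest merbarone peak. The site chr13:87098643-87098829 lay 1.22 Mb away. All 4 were narrow, at 159 to 217 bp.

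The other 6 of the 10 most distant lay 541 to 846 kb from any merbarone peak. They were chr10:36778666-36778931, chr8:83588182-83588353, chr5:124885076-124885430, chr4:75719220-75719563, chr7:126341166-126341446 and chrX:64196195-64196458. The sites on chromosomes 5 and 4 were the widest of the 10, at 355 and 344 bp. Regions known to give signal with any antibody were not filtered out here.

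TOP2A, which the rule did not use, was rare at control-only sites. Of the 6424, 8 (0.125%, 0.0631 to 0.246) overlapped a TOP2A peak, and 8 of 1840 TOP2A peaks (0.435%, 0.220 to 0.856) lay on such a site. Among kept regions, 3.35% (3.16 to 3.55) overlapped TOP2A as counted, and 0.332% of those of like control width. In the class of 200 to under 250 bp of control peak, 3 of 1687 control-only sites (0.178%, 0.0605 to 0.522) and 4 of 1780 kept regions (0.225%, 0.0874 to 0.576) overlapped TOP2A. In that class the intervals overlap. Over all classes the 0.332% by control width lies above the interval of the control-only share. Weighted by merged width the value was 0.173%, inside that interval, so the reading depended on the weighting. No interval was computed for either value. Kept regions of like control width also span merbarone peaks, so they can be wider than the sites and offer more bases to overlap.

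In the wider surroundings the TOP2A shares were close at like control width. A TOP2A peak lay within 5 kb of 177 control-only sites (2.76%, 2.38 to 3.18) and of 3.16% of kept regions of like control width. Within 50 kb the shares were 17.0% (16.1 to 17.9) and 16.2%. Weighted by merged width, the kept regions stood at 5.76% within 5 kb and 20.5% within 50 kb, so the order at 50 kb turned with the weighting. As counted they stood at 18.2% within 50 kb. Weighting by merged width gives 33.6% and 19.5% of the weight to the classes with 8 and 35 kept regions. With like limits the value within 5 kb was 1.62%, below the 2.57% of control-only sites. For regions missing at 30 min alone and at 1 h alone the shares within 5 kb, as counted, were 2.62% and 2.43%. The median distance to TOP2A was 308587.5 bp for control-only sites and 306288 bp for kept regions of like control width.

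The few control-only sites that held TOP2A were mostly far from other Pol II. Of the 8, 5 had no merbarone peak within 10 kb, so 5 of the 513 distant sites (0.975%, 0.417 to 2.26) held TOP2A, against 3 of the 5911 others (0.0508%, 0.0173 to 0.149). Among kept regions with 159 to under 600 bp of control peak, the same division gave 31 of 1461 (2.12%, 1.50 to 3.00) and 58 of 11796 (0.492%, 0.381 to 0.635). Overlap with TOP2A was thus more frequent at distant sites in both groups, and this division was chosen after the values were seen. Width was not held equal in it. Of kept regions with 159 to under 180 bp of control peak, 3.70% were distant and 0.241% overlapped TOP2A. From 400 to under 600 bp the shares were 15.7% and 1.16%. Of the distant control-only sites 15.6% were at least 300 bp wide, against 9.25% of the others. Beyond overlap the order turned among control-only sites. A TOP2A peak lay within 5 kb of 2.14% of the distant sites and 2.81% of the others, and within 50 kb of 9.36% and 17.6%.

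The widest of the 8, chr8:8153608-8154174, spanned 567 bp and enclosed a whole TOP2A peak of 87 bp, 13.9 kb from the nearest Pol II peak of any list. The site chr3:169530168-169530514 (347 bp) enclosed one of 73 bp, with Pol II 13.5 kb away at 1 h and 21.0 kb away at 30 min. The site chr4:122872680-122872967 (288 bp) also enclosed a peak of 73 bp and stood 80.7 kb from Pol II at both times. At chr7:124405694-124405922 (229 bp), TOP2A spanned 147 bp and all of it lay on the site, 50.9 kb from the nearest Pol II peak. The site chr6:105584820-105585054 (235 bp) held 85% of an 80 bp TOP2A peak and lay 136 kb from Pol II at 30 min and 265 kb at 1 h. In these 5 places control Pol II and TOP2A were called together, with no other Pol II within 10 kb in any list.

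The remaining 3 each had another control peak and a 30 min peak within 1 kb. At chr1:197887048-197887267 (220 bp), TOP2A overlapped 41 bp, with a 30 min peak 164 bp away and a 1 h peak 134 bp away. The site chr6:3156551-3156713 (163 bp) shared 42 bp with TOP2A and stood 492 and 450 bp from those lists. At chr3:16926698-16926891 (194 bp), a 30 min peak lay 322 bp away and the nearest 1 h peak 267 kb away, which makes it the only one of the 3 with Pol II nearby at 1 of the times alone. TOP2A was mapped in untreated cells only, so its state at these places after merbarone was not tested.

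Control-only sites were found on all 23 chromosomes with Pol II peaks. Their share of control regions was highest on chromosome 5 (15.3%, 14.0 to 16.7), chromosome 4 (15.1%, 13.6 to 16.9) and chromosome 7 (15.1%, 13.9 to 16.5). It was lowest on chromosome 22 (9.67%, 7.94 to 11.7), chromosome 14 (9.93%, 8.52 to 11.5) and chromosome X (10.7%, 8.83 to 12.8). Width differed between chromosomes as well: control peaks had a median of 303 bp per region on chromosome 5 and 520 bp on chromosome X. Weighted to the control widths of all chromosomes, the share was highest on chromosome 8, at 14.5%. It was 14.4% on chromosome 7, 14.1% on chromosomes 4 and 6, and 13.6% on chromosome 5, which no longer led. The weighted shares were 13.2% on chromosome X, 10.8% on chromosome 22 and 10.3% on chromosome 14. Chromosomes 14 and 22 thus stayed low, and chromosome X came to lie above the 12.7% of all chromosomes.

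**Figure D4:**
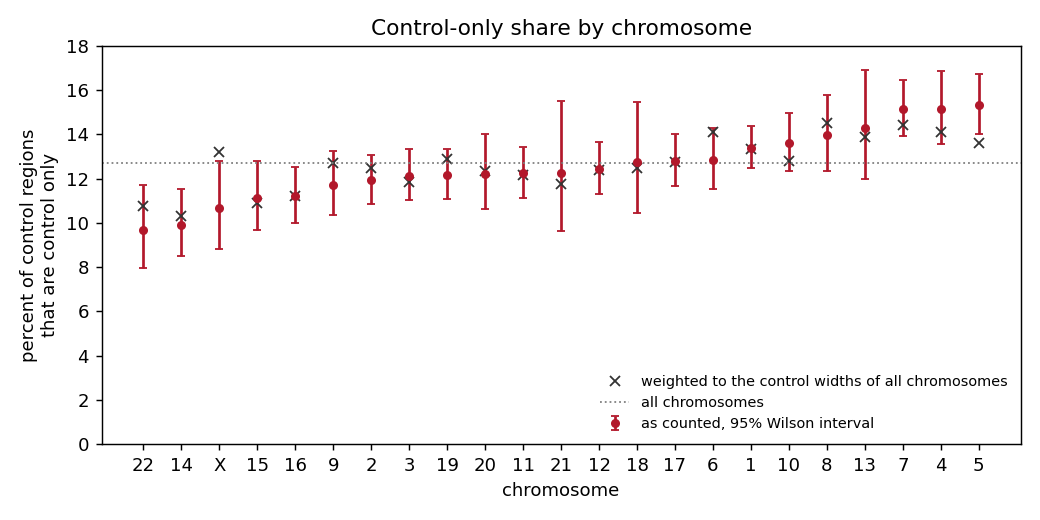
Red points give the percent of control regions on each chromosome that are control only, with 95% Wilson intervals; crosses give the share weighted to the control widths of all chromosomes and the dotted line marks 12.7%. Counted shares run from 9.67% on chromosome 22 to 15.3% on chromosome 5, and the cross of chromosome X lies at 13.2%, above its point at 10.7%.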

How the data were processed

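The 4 peak lists of hTERT RPE-1 cells were taken as the authors made them. Per the submitters' processing notes, the authors used Bowtie 1.2.0, MACS2 and deepTools 2.4.1 on hg19. For the peak threshold, the background library and any pooling of libraries, the wording is the same: not given in the sources used here. Each deposited peak is a pair of positions in bp (other than a count or score), without a height or p. Total reads are unknown, so list depth limits every value. The lists held 87911 control, 85990 (30 min), 81816 (1 h) and 1840 TOP2A peaks. The 3 IgG libraries were not analysed here.

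Deposited starts were taken as 0-based. Distances run from edge to edge. Regions of the 10 largest widths, the 10 most distant, the 5 largest clusters, the 10 domains with most sites and all sites with TOP2A are named. Like-width values are weighted over 7 width classes (limits 180, 200, 250, 300, 400 and 600 bp). The group of sites and these lists of measures were chosen with earlier results of these data known, and alternatives on touching peaks, on narrow regions between cluster members and on joint limits and control width were added after seeing the data. No chance test was made. Merging, distances, cover and clusters were tested on simulated data. Annotation and sequence of the sites, which had been planned, were not analysed here. Versions were Python 3.11.15, pandas 2.3.3, numpy 2.4.6, matplotlib 3.10.9 and scipy 1.17.1.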

Additional observations from a re-analysis of the deposited data

How the results depend on the processing

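No paired analysis was possible because each condition has 1 list for all its libraries, so no replicate block was fitted and no library was left out in turn. None of these differences has a test. The order of control-only sites and kept regions turned under like limits with merged width, at 30 min, at 1 h and for TOP2A. The causes of the changes below were not tested.

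With like limits in every list (neighbours no more than 37 bp apart joined, then anything narrower than 159 bp dropped), there were 6488 control-only sites of median width 199 bp. The share near a 30 min peak was 55.4% and that in clusters 21.4%. Kept regions of like merged width stood at 44.9% near another 30 min peak, 46.2% near another 1 h peak and 1.62% near TOP2A (within 5 kb). By control width with those limits they stood at 74.5%, 80.4% and 2.88%. With lists as deposited and control width they stood at 77.4%, 80.5% and 3.16%.

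With no minimum width, a minimum of 300 bp or peaks merged up to 100 bp apart, kept regions were weighted by merged width. With no minimum width there were 12856 sites of median width 158 bp, 58.5% near a 30 min peak and 31.1% in clusters. Kept regions then stood at 83.2%, 66.5% and 9.13%. Most of that weight fell on widths under 180 bp, where only 8 kept regions lay. With a minimum of 300 bp there were 627 of median 345 bp, 62.8% near a 30 min peak and 2.87% in clusters, and kept regions stood at 73.2%, 74.1% and 3.31%. With peaks up to 100 bp apart merged, the median was 199 bp, 49.4% lay near a 30 min peak, 47.7% near a 1 h peak and 16.6% in clusters, and kept regions stood at 69.7%, 59.9% and 6.82%. When a control peak counted as kept only with 50% of it covered, there were 9935 sites of median 205 bp. Of these, 71.5% and 70.3% lay near the merbarone lists, and kept peaks stood at 82.9%, 71.7% and 4.19%. Sites could then overlap a merbarone peak in part, and such a peak counted as near. For kept peaks only merbarone peaks that did not overlap them were counted, so the merbarone shares differ in measure.

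Clusters held 15.9% of sites with a limit of 1 kb, 40.8% with other Pol II regions allowed between, and 21.2% with narrower control-only regions allowed between. TOP2A lay within 1 kb of 0.747% and within 50 kb of 17.0%. Near merbarone peaks of at least 300 bp lay 33.1% and 40.2%. Leaving out chromosome X or merging touching peaks moved none of these shares beyond its counting interval. Of 28 named regions, 27 remained control only with like limits, 25 with peaks up to 100 bp apart merged and 14 with a minimum of 300 bp. Of the 15 counts for named clusters and domains, 14 stayed within 1.5 times with like limits, 10 when 50% cover was needed, 9 with peaks up to 100 bp apart merged, 8 with no minimum and 0 with a minimum of 300 bp. With peaks up to 100 bp apart merged, the cluster of 7 on chromosome 19 held 4 and the domain of 54 on chromosome 10 held 35.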
